A study of Mus musculus with 6 samples.

Results

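Cytotoxic effector genes, 8 of the 12436 genes in the deposited tables, were followed in T and natural killer (NK) cells of injured mouse muscle: Gzma, Gzmb, Prf1, Nkg7, Ccl5, Klrd1, Klre1 and Klrk1. They were picked by gene symbol, with earlier results of these data known. In the genome build of the files (GRCm39) all are protein-coding genes, at chr13:113230359-113237516 for Gzma, chr14:56496295-56499718 for Gzmb, chr10:61133612-61140460 for Prf1, chr7:43086497-43087674 for Nkg7 and chr11:83416604-83421345 for Ccl5. Klre1 (chr6:129554868-129562791), Klrd1 (chr6:129568745-129575739) and Klrk1 (chr6:129587286-129600828) are neighbours on chromosome 6.

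Cytotoxic T cells and NK cells carry granules that are released onto a target cell. Perforin, the product of Prf1, opens the target's membranes, and granzyme A and granzyme B, the serine proteases encoded by Gzma and Gzmb, enter and cleave proteins inside it. Nkg7 encodes a membrane protein of these granules that takes part in their release. Ccl5 encodes a chemokine that draws leukocytes and is made by effector T cells, NK cells and macrophages. Klrd1 (CD94) pairs with NKG2 chains and Klrk1 (NKG2D) signals through the adapter Hcst, so that both receptors read ligands on other cells, and Klre1 encodes a further lectin-like receptor of NK cells.

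The study asked how hypothyroidism changes the regeneration of the tibialis anterior muscle (TAM). Single cells were profiled from 6 libraries, 1 for each diet at 0 dpi (uninjured muscle), 5 dpi and 14 dpi (days after injury), and each library was a pool of 3 male mice aged 3 to 5 months. Mice of both diets were Pax7-Fucci mice, bred from Pax7-Cre mice and a B6;129 stock with the allele tm1(Fucci2aR)Jkn of Gt(ROSA)26Sor. This allele is a cell-cycle reporter that stays silent without Cre, and animals negative for Cre were used for transcriptomics. Hypothyroid mice ate food low in iodine with 0.15% propylthiouracil (PTU), which blocks thyroid hormone synthesis, from 3 weeks before injury onward, control mice ate a matched diet, and injured muscle had received cardiotoxin at 50 μg/mL in the right TAM.

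With 1 library in each group there was no replicate, so no test and no p-value could be had, and a difference between diets cannot be told apart from a difference between 2 pools of mice. The tables held 20269 cell columns in up to 3 runs of barcodes, and the first run of each library gave 11207 cells with 2283740 to 23496509 UMIs (unique molecular identifiers, counts of captured RNA molecules) a library and a median of 3634 to 8055 UMIs a cell. Whether the first run of a table is the library of its label could not be checked. Of these barcodes, 12 occurred in more than 1 library, and 0 of them had identical values in both. The level of a gene is given as CPM, its UMIs per 1000000 UMIs over the pooled cells of a class, with an exact 95% Poisson interval. The ratio of 2 levels has an exact 95% interval of the same kind, and shares of cells have exact (Clopper-Pearson) ones. All intervals cover counting error only. A gene with at least 20 UMIs over both pools is called higher or lower when the ratio is at or past 2-fold, and the share of all genes so called is given as the background.

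Cells were clustered without the 8 genes, and clusters were named from marker lists, so that NK-like against T-like values describe classes made from other genes of the same cells. T-like cells were 3 clusters with a UMI of Cd3d, Cd3e or Cd3g in 86.3%, 94.5% and 76.4% of their cells. NK-like cells were 3 clusters, among which the share was 3.32% and 6.11% in the 2 that were not dividing and 26.7% in the dividing one, which lay between the T-like clusters and the other NK-like ones in this respect. Ncr1, a receptor that defines NK cells, gave a UMI in 11.8% to 28.6% of the cells of the NK-like clusters and in 0% of those of the T-like clusters. At 5 dpi control muscle held 359 T-like cells (14.8% of its cells, 95% interval 13.4% to 16.3%) and 621 NK-like cells (25.6%, 23.9% to 27.4%), and hypothyroid muscle held 111 (5.15%, 4.26% to 6.17%) and 137 (6.36%, 5.36% to 7.47%). At 14 dpi control muscle held 86 T-like cells (2.61%, 2.09% to 3.21%) and hypothyroid muscle 132 (8.0%, 6.74% to 9.42%). At 14 dpi 19 cells of hypothyroid muscle and 0 of the 3294 of control muscle lay in an NK-like cluster. Control muscle was not shown to lack NK cells by this count: 31 of its cells lay in an unnamed cluster with NK genes at 2121 CPM, described further on, and a rule that took cells by UMIs of at least 2 NK genes without CD3 found 18 in control and 15 in hypothyroid muscle. Below 20 cells no level was compared.

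The stretch before the start of transcription is shown for the granule genes, because the members differ in which lymphocytes hold them and because Runx factors, which bind the letters ACCACA, act in both T and NK cells. RefSeq gave an entry for 6 of the 8 genes on build GRCm38.p6, whose positions cannot be read against those of GRCm39 above. The lines give the 250 bases before the start for Gzma (chr13:113100982-113101231, minus strand), Gzmb (chr14:56262335-56262584, minus strand), Prf1 (chr10:61297586-61297835, plus strand) and Nkg7 (chr7:43436888-43437137, plus strand), with ACCACA or its complement TGTGGT in capitals.
Gzma: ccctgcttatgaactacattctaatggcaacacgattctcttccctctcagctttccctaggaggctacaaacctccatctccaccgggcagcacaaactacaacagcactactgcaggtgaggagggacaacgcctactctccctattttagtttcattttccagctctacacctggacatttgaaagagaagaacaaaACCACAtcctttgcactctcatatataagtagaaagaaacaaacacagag
Gzmb: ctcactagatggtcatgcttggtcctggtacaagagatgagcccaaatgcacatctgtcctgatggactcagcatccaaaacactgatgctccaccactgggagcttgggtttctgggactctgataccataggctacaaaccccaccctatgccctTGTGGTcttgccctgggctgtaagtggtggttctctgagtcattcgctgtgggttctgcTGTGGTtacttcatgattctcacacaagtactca
Prf1: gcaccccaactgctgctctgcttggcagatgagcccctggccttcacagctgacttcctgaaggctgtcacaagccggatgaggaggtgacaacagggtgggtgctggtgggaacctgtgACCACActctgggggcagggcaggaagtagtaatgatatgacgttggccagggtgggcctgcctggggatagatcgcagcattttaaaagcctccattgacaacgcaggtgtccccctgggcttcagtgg
Nkg7: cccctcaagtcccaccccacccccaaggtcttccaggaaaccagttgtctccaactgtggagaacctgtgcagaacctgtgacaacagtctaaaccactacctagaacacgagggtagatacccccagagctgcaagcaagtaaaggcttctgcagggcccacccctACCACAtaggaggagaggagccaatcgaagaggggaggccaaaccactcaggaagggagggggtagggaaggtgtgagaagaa
Gzmb held 2 matches, which began 93 and 34 bases before the start, and the other 3 genes held 1 each, 50 bases before it in Gzma, 130 in Prf1 and 83 in Nkg7. All 6 genes with an entry held a match, Klrk1 at 129 bases and Klre1 at 229 bases in 1 of its 2 entries, while 14.0% of all 32851 RefSeq stretches of the same length did so. Of 11 strings of letters searched on both strands this was the one found in all 6 genes. The longer Runx form AACCACA, which contains it, was in Gzma, Gzmb, Klre1 and Klrk1 and in 4.40% of all stretches. The T-box letters AGGTGT were in Gzma, Prf1 and Nkg7 and in 11.8% of all stretches, and GGTGTGA, which overlaps them, was in Nkg7 and in 3.33%. The AP-1 letters TGAGTCA were in Gzmb and in 4.46%, and the CRE letters TGACGT in Prf1 and in 6.47%. The Ets letters AGGAAG were in Klre1, Nkg7 and Prf1 and in 29.5%, their longer form CAGGAAG in Nkg7 and Prf1 and in 10.8%, and ACAGGAAG in none of the 6 and in 2.90%. The GAS letters TTCNNNGAA were in Nkg7 and in 7.02%, and the Ikaros letters TGGGAA in Klre1 and Prf1 and in 21.6%. A match of letters is not a site, and nothing in these data measured binding.

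At 5 dpi NK-like cells held most of the UMIs of 7 of the 8 genes in control muscle: 87.3% of those of Gzma, 84.6% of Prf1, 82.0% of Klre1, 80.5% of Nkg7, 76.0% of Klrk1, 69.6% of Gzmb and 66.8% of Klrd1. Ccl5 was spread more widely. NK-like cells held 48.6% of its UMIs in control muscle but 8.58% in hypothyroid muscle, where monocyte/macrophage-like cells held 46.1% and dendritic-like cells 18.7%. At 14 dpi in hypothyroid muscle T-like cells held most of the UMIs of 5 genes, with 93.3% for Gzmb, 87.6% for Nkg7, 85.3% for Prf1, 76.4% for Ccl5 and 65.8% for Klrd1, while the 19 NK-like cells held 93.0% of those of Gzma.

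Outside T-like and NK-like cells several members were also found. In non-immune cells, taken as the background, the levels at 5 dpi were 2.90 CPM for Prf1 and 12 CPM for Gzma in control muscle, and Ccl5, the highest value there, was at 63.2 CPM in control against 52.3 CPM in hypothyroid muscle. These cells were deeper than T-like cells, with a median of 9083.5 against 2079 UMIs in control muscle at 5 dpi. What this depth does to the background was not tested. B-like cells at 5 dpi had no UMI of Gzmb, Prf1, Nkg7, Klrd1 or Klrk1 in either diet. Ccl5 was high in myeloid cells. In monocyte/macrophage-like cells at 5 dpi it was at 175 CPM in control against 1527 CPM in hypothyroid muscle (ratio 8.73, 7.53 to 10.2), and in dendritic-like cells at 835 and 2753 CPM (ratio 3.29, 3.10 to 3.51). At 14 dpi the macrophage-like values were 598 and 1022 CPM. Hypothyroid muscle was therefore the higher in each of these 3 comparisons. The makeup of the macrophage-like class differed too: 1 of its clusters had 26 cells in control and 247 in hypothyroid muscle at 5 dpi, with Ccl5 at 599 and 1998 CPM in it. Klrd1 was at 60.7 and 145 CPM in dendritic-like cells at 5 dpi. In control muscle these cells had Gzma at 65.2 CPM and Prf1 at 12.9 CPM, close to the 71.2 and 13.3 CPM of T-like cells. In hypothyroid muscle the values were 29.8 and 5.51 CPM in dendritic-like against 124 and 16.7 CPM in T-like cells. In the largest dendritic-like cluster, over all libraries, 21 of 375 cells had a Gzma UMI and 11 a Prf1 UMI. The 40 neutrophil-like cells of control muscle at 5 dpi had Ccl5 at 683 CPM, Gzma at 319 CPM, Klrd1 at 216 CPM and Klrk1 at 159 CPM. These levels came from few cells. Over all libraries, of 44 neutrophil-like cells 5 had a UMI of Ccl5, 5 of Klrd1, 4 of Klrk1 and 3 of Gzma, and 4 had a CD3 UMI. Gzmb was found in a small unnamed cluster led by Mcpt4, Tpsb2 and Cpa3, genes of mast cell proteases. Its 29 cells had a Gzmb UMI in 51.7% and no UMI of Gzma or Prf1. In uninjured control muscle 2 of these cells held 159 of the library's 174 Gzmb UMIs (91.4%), and in control muscle at 5 dpi 15 of them held 351 of 1934 (18.1%).

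**Figure D1:**
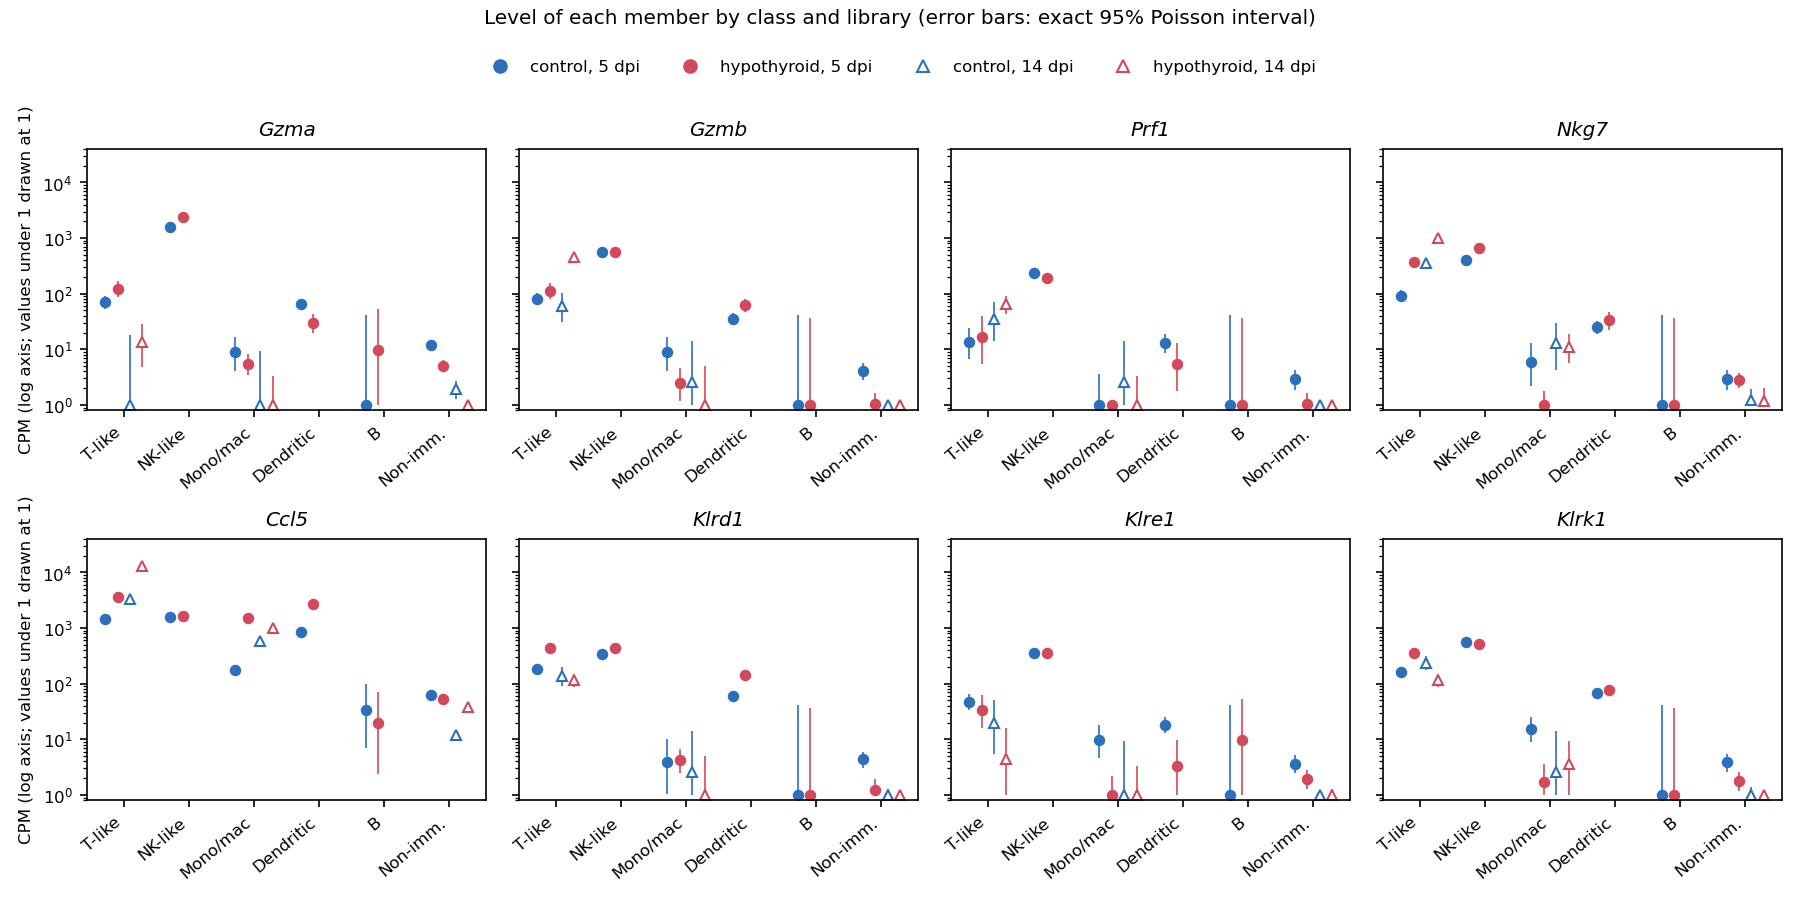
Level of each of the 8 genes (CPM, log axis, values under 1 drawn at 1) in 6 cell classes of the 4 libraries after injury, for classes of at least 20 cells. Circles are 5 dpi and triangles 14 dpi, blue is control and red hypothyroid, and bars are exact 95% Poisson intervals; Gzma reaches 1599 and 2445 CPM in NK-like cells but stays at or under 124 CPM in T-like cells, whereas Ccl5 is also high in myeloid cells.

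Within a library at 5 dpi Gzma and Prf1 separated NK-like from T-like cells the most of the 8 genes. In control muscle 6 of the 8 genes were higher in NK-like cells (background 9.78% of 8735 genes higher and 8.32% lower). Gzma was at 1599 CPM (1549 to 1650) in NK-like and 71.2 CPM (54.2 to 91.9) in T-like cells, a ratio of 22.5 (17.4 to 29.5). Prf1 was at 232 against 13.3 CPM, a ratio of 17.4 (9.67 to 35.1) that rests on 11 UMIs in T-like cells. Klre1 came next with a ratio of 7.65, then Gzmb with 6.84, Nkg7 with 4.41 and Klrk1 with 3.44, and Klrd1 (1.91) and Ccl5 (1.10) stayed within 2-fold. The median ratio of the 8 genes was 5.62, against 0.988 for all genes.

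In hypothyroid muscle 4 of the 8 genes were higher in NK-like cells (background 13.2% of 5700 genes) and 1 was lower (background 7.86%). Gzma (ratio 19.8, 14.3 to 28.2), Prf1 (11.6, 4.87 to 36.4), Klre1 (10.7, 5.75 to 22.7) and Gzmb (4.95, 3.48 to 7.25) kept the direction they had in control muscle. Nkg7 (1.82), Klrk1 (1.42) and Klrd1 (1.02) lay within 2-fold. Ccl5 was the gene lower in NK-like than in T-like cells, at 1640 against 3686 CPM (ratio 0.445, 0.409 to 0.484). The T-like cells of this library thus stood closer to its NK-like cells than those of control muscle did for Nkg7, Klrk1 and Klrd1, a contrast that was not tested.

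Taken as 1 class, NK-like cells of the 2 diets differed by less than 2-fold in each of these genes at 5 dpi. None of the 8 was called in either direction, where 3.28% of 8540 genes were higher and 11.8% lower in hypothyroid muscle, and the median ratio of hypothyroid over control was 1.03 for the 8 and 0.829 for all genes. Of the granule genes, Gzma was at 1599 CPM in control against 2445 CPM (2331 to 2564) in hypothyroid NK-like cells (ratio 1.53, 1.44 to 1.62), and Nkg7 at 404 and 675 CPM (ratio 1.67, 1.49 to 1.86). Both were above the counting error but short of 2-fold. Gzmb was at 553 and 563 CPM (ratio 1.02, 0.907 to 1.14) and Prf1 at 232 and 195 CPM (ratio 0.841, 0.692 to 1.02), with intervals that include 1. Ccl5 (1579 and 1640 CPM, ratio 1.04, 0.972 to 1.11), Klre1 (360 CPM in both, ratio 0.998, 0.864 to 1.15) and Klrk1 (561 and 514 CPM, ratio 0.916, 0.813 to 1.03) did not differ beyond counting error either. Klrd1 was at 349 and 446 CPM (ratio 1.28, 1.12 to 1.46). By cluster, Nkg7 was called higher in the 2 that were not dividing, with ratios of 2.22 (1.85 to 2.65) and 2.19 (1.65 to 2.89). No other member was called in them (background 4.11% of 6431 and 5.24% of 3648 genes higher, 17.6% and 20.3% lower). Gzma had ratios of 1.66 and 1.89 there. In the dividing cluster no member was called (background 3.07% higher and 12.9% lower), with Nkg7 at 1.27 and Gzma at 1.4. The 13 mitochondrial genes made up 4.94% of the UMIs of control and 2.53% of those of hypothyroid NK-like cells, and their part in these ratios was not tested. Summed over the 8 genes the ratio was 1.21 (1.17 to 1.25). It was 0.852 when NK cells were taken by Ncr1 or Klrb1c without any T cell receptor UMI, a rule that left 85 control and 23 hypothyroid cells. This set was without the 60.7%, 27.5% and 71.4% of cells of the NK-like clusters that had a UMI of Trbc1, a T cell receptor gene.

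Dividing NK-like cells, those with UMIs of at least 3 proliferation genes, had less of several members. They numbered 129 in control and 41 in hypothyroid muscle. Ccl5 was at 685 CPM in dividing and 2248 CPM in other NK-like cells of control muscle (ratio 0.305, 0.281 to 0.331) and at 871 and 2502 CPM in hypothyroid muscle (ratio 0.348, 0.305 to 0.396). Prf1 was lower in dividing cells as well, with ratios of 0.547 (0.453 to 0.658) and 0.359 (0.241 to 0.526), and so was Klrk1, with 0.588 and 0.664. The 3 genes therefore had the same direction in both libraries. Gzmb did not: it was at 685 CPM in dividing against 454 CPM in other cells of control muscle (ratio 1.51, 1.35 to 1.68) and at 483 against 653 CPM in hypothyroid muscle (ratio 0.740, 0.603 to 0.906). Among cells that were not dividing, the hypothyroid over control ratio was 1.44 (1.23 to 1.68) for Gzmb, 1.81 (1.68 to 1.95) for Gzma and 2.17 (1.88 to 2.51) for Nkg7, against 1.02, 1.53 and 1.67 with the dividing cells included.

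T-like cells at 5 dpi were richer in 4 of the 7 genes with enough UMIs in hypothyroid muscle (background 3.60% of 6368 genes higher and 20% lower, 0 members lower). The median ratio of those 7 was 2.22, against 0.769 for all genes. Nkg7 was at 91.8 CPM (72.3 to 115) in control against 371 CPM (305 to 447) in hypothyroid T-like cells, a ratio of 4.05 (3.00 to 5.49). Ccl5 was at 1429 and 3686 CPM, a ratio of 2.58 (2.37 to 2.80). The receptors went the same way, with Klrd1 at 182 and 438 CPM (ratio 2.40, 1.89 to 3.06) and Klrk1 at 163 and 361 CPM (ratio 2.22, 1.71 to 2.88). The proteases did not reach 2-fold. Gzma was at 71.2 and 124 CPM (ratio 1.74, 1.12 to 2.67), but 23 of its 37 UMIs in hypothyroid muscle came from 1 cell. Gzmb was at 80.9 and 114 CPM (ratio 1.41, 0.902 to 2.16) and Klre1 at 47.1 and 33.5 CPM (ratio 0.711, 0.316 to 1.45). Prf1 had 11 and 5 UMIs, too few to call.

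How T cells were picked mattered at 5 dpi. The sum of the 8 genes had a ratio of 2.47 (2.31 to 2.65), which was 1.37 for cells with UMIs of at least 2 T cell receptor or CD3 genes and 1.27 for cells with any CD3 UMI, rules that also take in cells of the NK-like clusters. It was 1.12 when the columns of the later barcode runs, repeated ones included, were added and the classes found again. Hypothyroid T-like cells at 5 dpi then numbered 419 in place of 111, and control ones 432 in place of 359. In uninjured hypothyroid muscle NK-like cells then numbered 143 in place of 1. Whether the added columns belong to the library of their label could not be checked. The makeup of the class also differed. A cluster led by Trgc1 and Trdc, genes of gamma-delta T cells, had 140 cells in control and 11 in hypothyroid muscle, and in control muscle it had Ccl5 at 111 CPM, Nkg7 at 6.74 CPM, Klrd1 at 10.1 CPM and no UMI of Gzma or Klre1. Gzmb, at 94.4 CPM there against 76.9 CPM in the largest T-like cluster, was not lower in it. Within the largest T-like cluster alone (210 and 100 cells) the ratio of the sum was 1.93 (1.79 to 2.07), and that of Nkg7 was 3.14 (2.30 to 4.32), Ccl5 1.99, Klrk1 1.81 and Klrd1 1.76. Klre1 had a ratio of 0.486 there, so that Nkg7 alone kept a ratio above 2. In T-like cells at 5 dpi 6 myocyte genes made up 0.224% of UMIs in control and 0.0401% in hypothyroid muscle, 13 mitochondrial genes made up 5.60% and 2.65%, and Cd3d, Cd3e and Cd3g together gave 915 and 447 UMIs. Per CD3 UMI, in place of all UMIs, the sum had a ratio of 1.83. The part of the mitochondrial RNA in the difference was not tested.

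**Figure D2:**
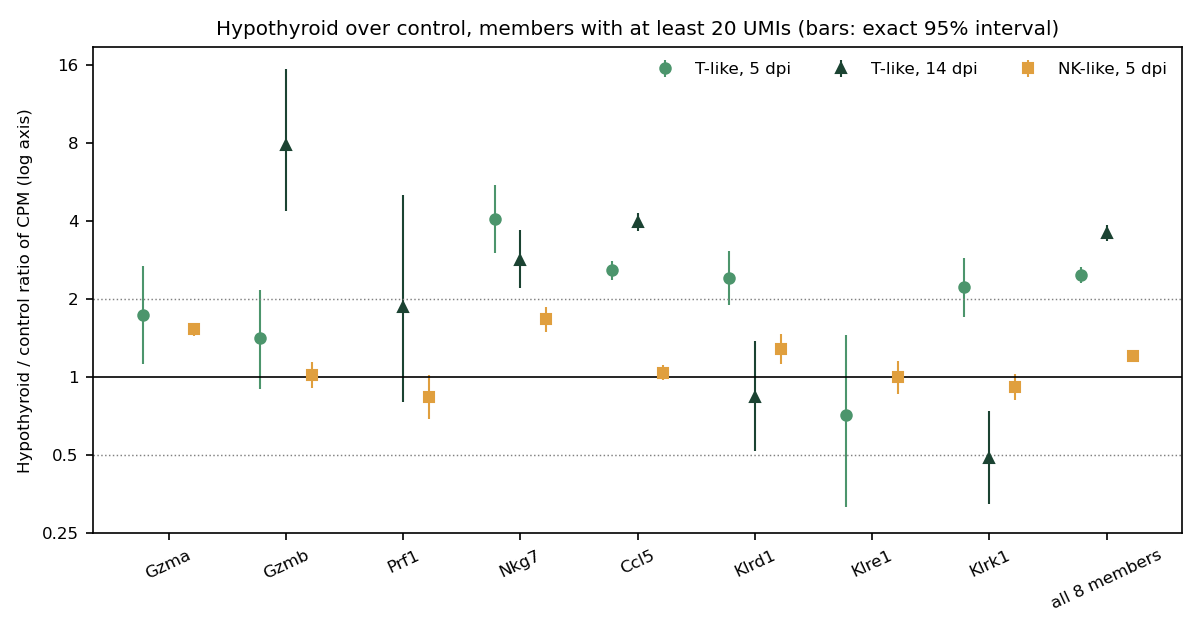
Ratio of CPM in hypothyroid over control muscle (log axis) for each gene with at least 20 UMIs and for the sum of all 8, in T-like cells at 5 dpi (circles) and 14 dpi (triangles) and NK-like cells at 5 dpi (squares), with exact 95% intervals as bars and dotted lines at 2-fold either way. Gzmb in T-like cells at 14 dpi is the highest point, at 7.82, while the NK-like ratios lie between 0.841 and 1.67.

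At 14 dpi the difference between diets in T-like cells lay in Gzmb, Ccl5 and Nkg7. Of 6 genes with enough UMIs 3 were higher in hypothyroid muscle (background 8.21% of 4715 genes) and 1 was lower (background 5.43%), with a median ratio of 2.35 for the 6 and 1.07 for all genes. Gzmb was at 59.3 CPM (30.6 to 104) in control against 463 CPM (402 to 531) in hypothyroid T-like cells, from 12 and 208 UMIs (ratio 7.82, 4.38 to 15.4). Ccl5 was at 3358 and 13295 CPM (ratio 3.96, 3.66 to 4.29), and Nkg7 at 351 and 991 CPM (ratio 2.83, 2.20 to 3.68). These 3 granule and chemokine genes were all above counting error. The receptors were not higher. Klrk1 was at 237 CPM in control against 116 CPM in hypothyroid T-like cells (ratio 0.488, 0.324 to 0.739), and Klrd1 at 138 and 116 CPM (ratio 0.837, 0.519 to 1.38). Prf1 was at 34.6 and 64.6 CPM, from 7 and 29 UMIs (ratio 1.87, 0.801 to 5.05). Gzma had 0 and 6 UMIs and Klre1 4 and 2, all at or near the limit that a count of 0 allows.

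Muscle fibre RNA also differed between the T-like cells of the 2 diets. In T-like cells at 14 dpi 6 myocyte genes made up 2.75% of UMIs in control and 0.431% in hypothyroid muscle, 13 mitochondrial genes 3.60% and 3.33%, and Cd3d, Cd3e and Cd3g together were at 1333 and 2821 CPM. Per CD3 UMI the ratio of the 8 genes summed was 1.70 (1.58 to 1.82) in place of 3.59 (3.34 to 3.86), that of Gzmb 3.69, Ccl5 1.87, Nkg7 1.34 and Klrk1 0.231. The part of this RNA in the difference was otherwise not tested. With the columns of the later barcode runs added, repeated ones included, the ratio of the sum was 1.42. That of Gzmb was 3.36, Ccl5 1.43 and Nkg7 1.21, so that Gzmb alone of the 3 stayed past 2-fold. Control T-like cells then numbered 172 in place of 86, and whether the added ones belong to that library could not be checked. With possible doublets left out the ratios of the sum and of Gzmb were 2.47 and 3.95.

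Most of the hypothyroid T-like cells at 14 dpi carried Cd8a or Cd8b1, the chains of the CD8 coreceptor, without Cd4. They were 94 of 132 cells (71.2%, 62.7% to 78.8%), against 32 of 86 (37.2%, 27.0% to 48.3%) in control muscle. For these shares cells were not thinned, and a cell without a UMI of these genes was left unassigned. The median depth of T-like cells was 2361 UMIs in control and 3366.5 in hypothyroid muscle at 14 dpi, and 2079 and 2624 at 5 dpi. The part of depth in the difference between these shares was not tested. Within CD8 cells Gzmb was at 132 CPM in control against 586 CPM in hypothyroid muscle (ratio 4.45, 2.37 to 9.42), Ccl5 at 5005 and 17033 CPM (ratio 3.40, 3.07 to 3.79) and Nkg7 at 685 and 1255 CPM (ratio 1.83, 1.37 to 2.49). The ratios of Gzmb and Ccl5 thus stayed above 2 within CD8 cells, and that of Nkg7 did not. Klrk1 was at 277 and 143 CPM (ratio 0.516, 0.303 to 0.907). At 5 dpi CD8 cells were 75 of 359 T-like cells (20.9%) in control and 49 of 111 (44.1%) in hypothyroid muscle, and within them the ratios were 2.37 (1.62 to 3.51) for Nkg7, 2.22 (1.59 to 3.11) for Klrd1, 2.05 (1.45 to 2.92) for Klrk1 and 1.75 (1.57 to 1.94) for Ccl5. Gzmb had 1.71 (0.867 to 3.43) and Gzma 0.377 (0.125 to 0.967) within CD8 cells, the latter on the other side of 1 from the ratio of 1.74 over all T-like cells. The 24 CD4 cells of control muscle at 5 dpi were lower than its CD8 cells in Ccl5 (1122 against 3049 CPM) and had no Prf1 UMI. CD4 cells in the other libraries were under 20.

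Gzmb at 14 dpi was held by few cells and Ccl5 by many. In hypothyroid muscle the 14 of 132 T-like cells with the most Gzmb held 74.5% of its UMIs, with up to 60 in a single cell, whereas the median cell had 0. For Ccl5 the median was 26.5 UMIs a cell and the highest 374, and the 14 cells with the most held 43.0%. In control muscle at 14 dpi the median was 0.5 and the highest 89. Of the 208 Gzmb UMIs of hypothyroid muscle 70 came from the 7 dividing cells, and without dividing cells the ratio of Gzmb was 5.71.

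From 5 to 14 dpi T-like cells of both diets had more Nkg7 and Ccl5 and less Gzma. In control muscle 2 of 7 genes were higher at 14 dpi (background 7.05% of 6296 genes) and 2 were lower (background 20.9%). Nkg7 had a ratio of 3.82 (2.73 to 5.35) and Ccl5 of 2.35 (2.13 to 2.58). Gzma, with 59 UMIs at 5 dpi and 0 at 14 dpi, was at least 4.81-fold lower against a floor of 3 UMIs (the exact 95% upper limit of the ratio being 0.264, a less strict bound), and Klre1 had a ratio of 0.420 (0.109 to 1.16). In hypothyroid muscle 4 of 7 were higher (background 13.0% of 5032 genes) and 3 lower (background 6.16%). Gzmb (4.07, 2.82 to 6.04), Prf1 (3.86, 1.48 to 12.8), Ccl5 (3.61, 3.38 to 3.85) and Nkg7 (2.67, 2.16 to 3.32) were the higher ones. Gzma (0.108, 0.0372 to 0.258), Klrd1 (0.264, 0.188 to 0.367) and Klrk1 (0.320, 0.226 to 0.450) were the lower ones. In hypothyroid muscle Gzma thus went with the receptors, and the other granule genes and Ccl5 the opposite way, while Klrk1 had a ratio of 1.45 (1.02 to 2.04) in control muscle. The T-like cells of the 2 days came from different clusters: the cluster led by Pdcd1 and Cd8b1 gave 81 and 126 of the cells at 14 dpi, and the clusters that held most cells at 5 dpi gave few or none.

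NK-like cells could be counted but not compared at 14 dpi and at 0 dpi. The 19 NK-like cells of hypothyroid muscle at 14 dpi held 193 UMIs of Ccl5, 160 of Gzma, 62 of Klrk1, 37 of Nkg7, 23 of Klrd1, 14 of Klre1, 11 of Gzmb and 3 of Prf1. In control muscle at 14 dpi an unnamed cluster led by Xirp2, a muscle fibre gene, carried these RNAs instead. Its 31 cells there had Gzma at 3061 CPM, Klre1 at 740 CPM, Prf1 at 420 CPM and 1 CD3 UMI in all, next to 6 NK genes at 2121 CPM together and 6 myocyte genes at 2.85% of UMIs, and they held 83.6% of the library's Gzma UMIs. The same cluster had 40 cells in control muscle at 5 dpi, with Gzma at 1189 CPM, against 1599 CPM in the NK-like cells of that library. In uninjured muscle 16 T-like and 6 NK-like cells were found in control and 6 and 1 in hypothyroid mice. The 6 NK-like cells of uninjured control muscle held 115 of its 155 Gzma UMIs and 298 of its 395 Ccl5 UMIs.

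Shares of cells gave the same picture when every cell was thinned to 1000 UMIs, which left out 7 to 24 shallower cells of a class in each library. A Gzma UMI was then found in 60.1% of NK-like cells in control and 69.5% in hypothyroid muscle at 5 dpi, but in 2.32% and 4.81% of T-like cells. Prf1 was found in 18.9% and 13.6% of NK-like and in 1.16% and 0.962% of T-like cells. In non-immune cells of the same libraries, thinned alike, both genes were found in at most 0.743%, and Nkg7 in at most 0.0964%, so that the T-like share of Nkg7, 6.67% in control and 21.2% in hypothyroid muscle, stood above it. At 14 dpi the share of T-like cells with a UMI was 25.8% in control and 58.6% in hypothyroid muscle for Nkg7, 48.5% and 82.8% for Ccl5, and 3.03% and 19.0% for Gzmb. Klrk1 was found in 16.7% and 8.62%. The non-immune cells of these 2 libraries had at most 0.163% for Nkg7, 1.06% for Ccl5, 0% for Gzmb and 0.0813% for Klrk1. Not thinned, the median depth of T-like cells was 2079 and 2624 UMIs at 5 dpi and 2361 and 3366.5 UMIs at 14 dpi in the control and the hypothyroid library, and that of non-immune cells was 9083.5, 12952, 4219 and 7990 UMIs in the same order.

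**Figure D3:**
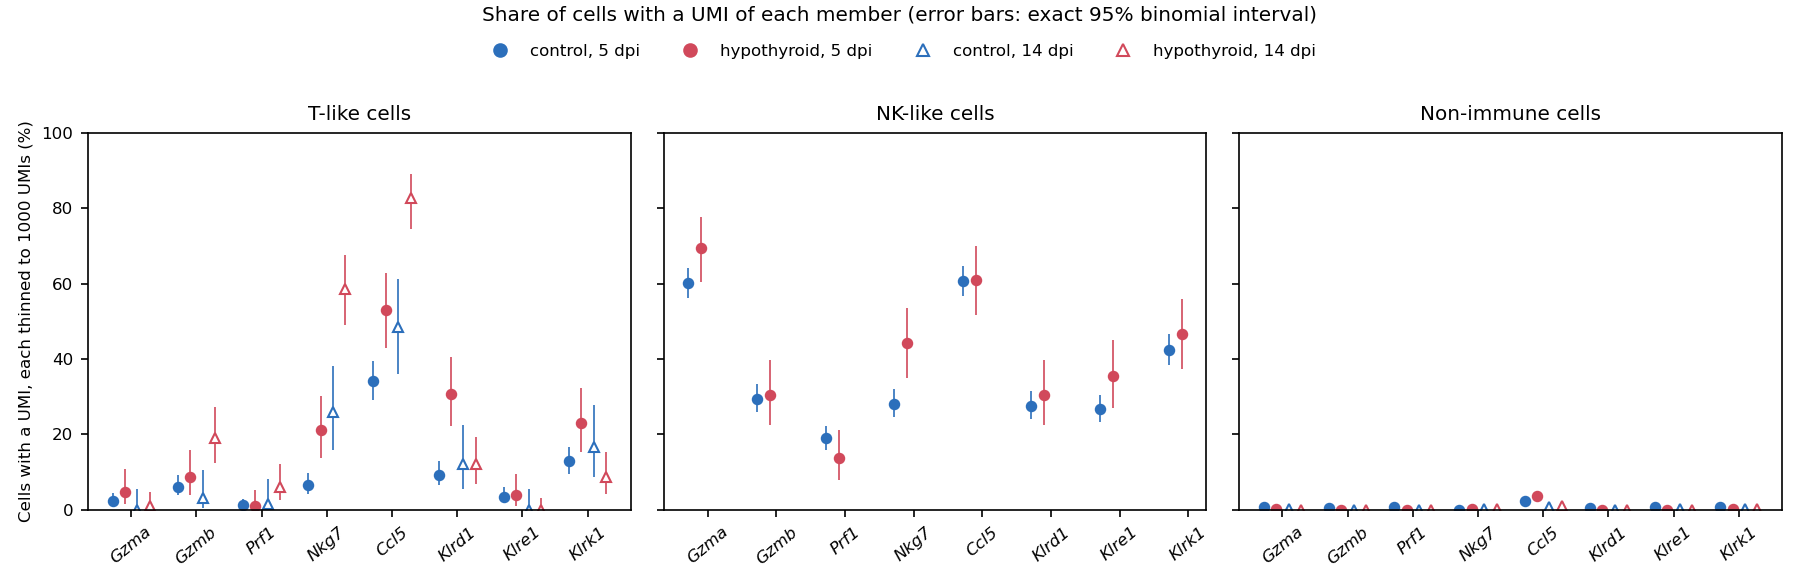
Percent of T-like, NK-like and non-immune cells with at least 1 UMI of each gene after every cell was thinned to 1000 UMIs, in the 4 libraries after injury (circles 5 dpi, triangles 14 dpi, blue control, red hypothyroid) with exact 95% binomial intervals as bars. In T-like cells at 14 dpi Ccl5 stands at 48.5% in control and 82.8% in hypothyroid muscle, and non-immune cells stay at or under 3.57% throughout.

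Single NK-like cells often carried several members at once, and T-like cells seldom did. At least 4 of the 8 genes had a UMI in 36.3% of NK-like cells of control and 44.1% of those of hypothyroid muscle at 5 dpi, against 3.19% and 11.5% of T-like cells. None of the 8 was found in 6.20% and 4.24% of NK-like cells and in 55.1% and 36.5% of T-like cells. At 14 dpi T-like cells without any were 36.4% in control and 12.9% in hypothyroid muscle. Nkg7 and Ccl5 were often found together: of the 68 T-like cells of hypothyroid muscle at 14 dpi with an Nkg7 UMI, 67 had one of Ccl5 (98.5%), against 60.4% of those without. In NK-like cells at 5 dpi this differed by library, with a Ccl5 UMI in 66.7% of cells with Nkg7 and 58.3% of those without in control muscle, but in 51.9% and 68.2% in hypothyroid muscle. Gzmb and Prf1 were each found in few T-like cells. They shared 2 of 116 at 14 dpi in hypothyroid muscle, where Prf1 was in 9.09% of cells with Gzmb and 5.32% of those without. In the other 3 libraries after injury they shared none, but Prf1 was found in only 1 to 4 T-like cells there, too few to show an overlap. In control NK-like cells Gzmb was found in 39.6% of cells with a Gzma UMI and in 14.3% of those without, and the shares were 32.9% and 25% in hypothyroid muscle.

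**Figure D4:**
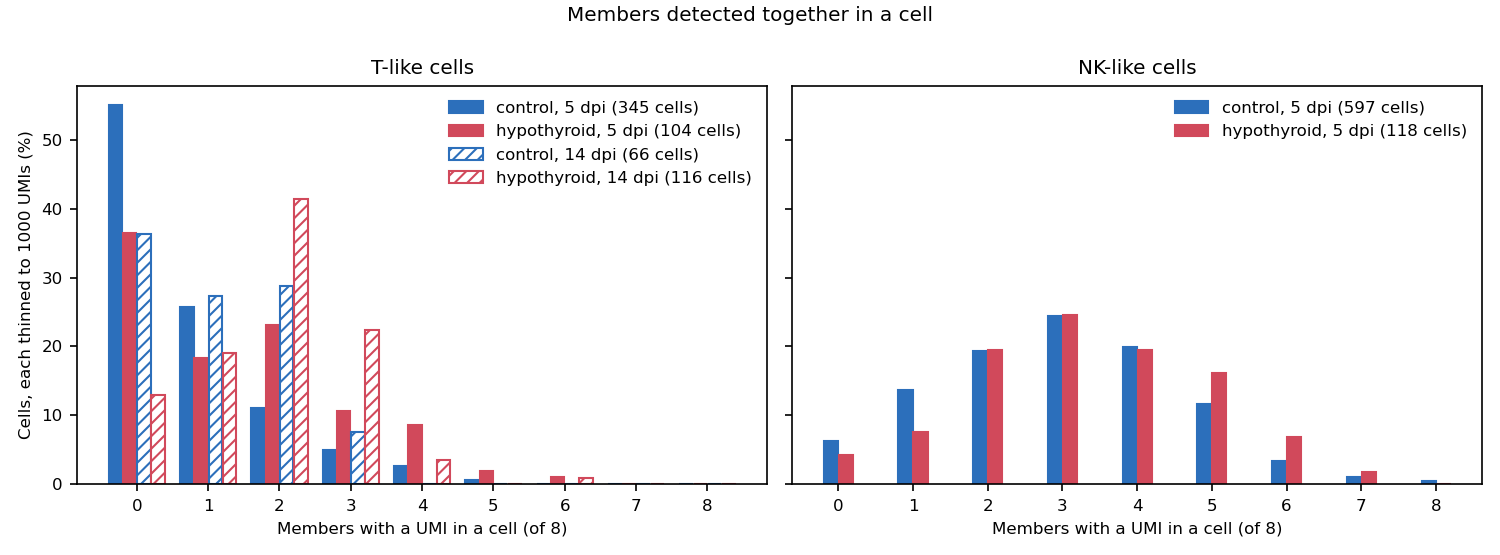
Percent of cells by how many of the 8 genes had a UMI, with every cell thinned to 1000 UMIs, in T-like cells of the 4 libraries after injury (left) and NK-like cells at 5 dpi (right); filled bars are 5 dpi, hatched bars 14 dpi, blue control and red hypothyroid. NK-like cells peak at 3 genes in both diets, and T-like cells of hypothyroid muscle at 14 dpi peak at 2.

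Other genes of the killing pathway were read from 8 lists, against the same shares of all genes called as given above. Of all genes, 3.60% were higher and 20% lower in hypothyroid T-like cells at 5 dpi, and 8.21% and 5.43% at 14 dpi. In NK-like cells at 5 dpi the shares were 3.28% and 11.8%. Of the other granzymes and effector molecules 5 of 7 counted genes were higher and 1 lower in hypothyroid T-like cells at 5 dpi, with a median ratio of 2.70. In the largest T-like cluster alone 4 of 6 were higher and none lower, with a median of 3.04 (background 3.83% of 5169 genes higher and 16.9% lower). Ccl4, a chemokine of the same family as Ccl5, had a ratio of 9.54 (4.44 to 22.8), the cytokine Ifng 6.93 (2.54 to 21.8), the chemokine Xcl1 4.40 (2.31 to 8.61) and the death ligand Tnfsf10 2.70 (1.72 to 4.26). NK-like cells at 5 dpi had 4 of 8 higher and none lower, with ratios of 6.13 (4.95 to 7.62) for Ccl4, 4.38 (2.98 to 6.45) for Ifng, 3.15 (1.96 to 5.03) for Ccl3 and 2.09 (1.25 to 3.45) for the granzyme gene Gzmk. Ccl4 and Ifng were therefore past 2-fold in both classes at 5 dpi. At 14 dpi the T-like cells had 3 of 5 higher and 1 lower: Gzmk (3.95, 2.51 to 6.54), Tnfsf10 (3.91, 1.68 to 11.1) and the death ligand Fasl (2.45, 1.43 to 4.48) were higher, and Ccl4 was lower (0.208, 0.123 to 0.344).

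Genes for granule storage and release were higher for 3 of 8 and lower for 1 in hypothyroid T-like cells at 5 dpi, and for none of 10 in T-like cells at 14 dpi or NK-like cells at 5 dpi. Within the largest T-like cluster at 5 dpi 1 of 8 was higher and 1 lower (background 3.83% higher and 16.9% lower). The median ratio was 1.10 there against 1.11 over all T-like cells. The protease inhibitor Ctla2a had a ratio of 2.41 (2.14 to 2.70) and the granule protease Ctsw 2.20 (1.54 to 3.11), and Stx11, which acts in granule fusion, had 0.369 (0.205 to 0.625). Among the adapters 1 of 5 was higher at 5 dpi in T-like cells and none of 3 at 14 dpi, the former being Hcst, the partner of Klrk1, with a ratio of 2.43 (1.90 to 3.12). Of the genes for ligands of the members, Ulbp1 was lower at 5 dpi (0.396, 0.0756 to 1.33) and H2-T23, whose product is read by Klrd1 with its NKG2 partner, was higher (2.75, 2.13 to 3.55). Il15ra, which presents the cytokine Il15 to lymphocytes, was higher at 14 dpi (3.46, 1.04 to 18.0). Serpina3g, of 4 inhibitors the one called, was higher in T-like cells on both days, at 2.57 (1.43 to 4.59) and, from 2 UMIs in control muscle, 6.76 (1.72 to 58.4). Of 7 transcription factors 1 was lower at 5 dpi, Zeb2 (0.487, 0.267 to 0.834), and at 14 dpi 1 was lower and 2 were higher. These were Tcf7, a factor of naive and memory T cells (0.278, 0.154 to 0.494), and Eomes (2.09, 1.08 to 4.45) and Prdm1 (3.16, 0.942 to 16.5), factors of effector cells. The cytokine receptor genes were called lower for 2 of 6 at 5 dpi, Il2rb (0.374, 0.303 to 0.456) and Il12rb2 (0.378, 0.0724 to 1.26). At 14 dpi 2 of 5 were lower, Il18r1 (0.424) and Il18rap (0.380), with Il21r higher (2.09, 0.956 to 5.18). With 20% of all genes lower in T-like cells at 5 dpi, the 1 or 2 lower genes of a list that day do not stand out by number. Other NK receptor genes had 1 of 4 higher in T-like cells on each day, Klrc2 at 5 dpi (3.04, 1.81 to 5.11) and Klrg1 at 14 dpi, with 21 UMIs against 0, and in NK-like cells 2 of 11 were higher (Klrg1 and Cd226) and 2 lower (Cd244a and Fcgr3). No gene was called in NK-like cells among the 4 inhibitors, 5 adapters, 8 transcription factors and 6 cytokine receptors counted there.

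The genes most like each member were found over 50 pools of a class in a library, of at least 20 cells each, by Pearson's r of log2(CPM + 1) among 12333 genes. The pools share libraries, and their classes were named from marker lists that include Klra4, Klra7 and Trbc1, so r is a description. Most of the pools were of classes other than T-like and NK-like cells. Gzma was most like Klra4 (r = 0.922) and Klra7 (0.910), receptors of NK cells, and Klre1 was most like Gzma (0.898). Gzmb was nearest to Nkg7 and Klrd1, with r = 0.955 for each, and Nkg7 was nearest to Trbc1 and Ctsw (0.968 each). Klrk1 was most like Klrd1 (0.948) and Prf1 most like Fasl (0.908). Ccl5 had the loosest match, with Il7r at 0.861.

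Over all cells of a library most members were lower at 5 dpi in hypothyroid muscle, the library with fewer NK-like and T-like cells. At 5 dpi 7 of the 8 were lower in hypothyroid muscle (background 19.6% of 12358 genes lower and 3.63% higher), from a ratio of 0.172 (0.145 to 0.204) for Prf1 to 0.360 (0.327 to 0.396) for Nkg7, and Ccl5 was at 513 and 568 CPM (ratio 1.11, 1.08 to 1.14). At 14 dpi 3 were higher in hypothyroid muscle (background 4.32% of 12284 genes) and none lower (background 6.22%): Gzmb at 1.76 and 17.0 CPM (ratio 9.65, 6.54 to 14.7), Ccl5 at 94.6 and 596 CPM (ratio 6.29, 5.96 to 6.65) and Nkg7 at 7.96 and 38.7 CPM (ratio 4.87, 4.01 to 5.94). Such whole-library values cannot tell fewer cells of a type from less RNA in each. Within NK-like and T-like cells at 5 dpi no member with enough UMIs was called lower, and Prf1 had too few UMIs in T-like cells. In parts of the T-like class, Klre1 had a ratio of 0.486 (0.216 to 0.991) in the largest cluster and Gzma 0.377 (0.125 to 0.967) in CD8 cells. The part of cell numbers in the whole-library ratios was not tested.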

How the data were processed

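Single-cell RNA-seq libraries of 6 pools of 3 mice were deposited as tables of log2(CPM + 1) values, which the authors made with Cell Ranger and Partek on build mm39, per the submitters' processing notes (versions not given in the sources used here). The tables hold no columns of the authors' own comparisons. UMIs of a cell were recovered by taking its most frequent value above 0 as 1 UMI, which gave whole numbers (within 0.1) for 99.934% of the values above 0 and for all values of the 8 genes. The first run of barcodes in alphabetical order was used in each table, 11207 of 20269 columns. Whether that run is the library of its label could not be checked. The later 9062 columns entered an alternative. Of all columns 1680 repeated another, and these were not removed in that alternative. It could not be checked either whether the later columns belong to the library of their label. Depth ranged from 2283740 to 23496509 UMIs a library, and intervals cover counting error only.

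Cells were clustered with scanpy 1.11.5 and leidenalg 0.10.2 on 2000 variable genes, 20 components and 15 neighbours, at resolution 0.3 for all cells and 1 for immune cells, without the 8 genes and the other effector genes. A cluster was named when at least 3 markers of a list had 2-fold the level of the rest and a UMI in 25% of cells. The choice to name immune clusters from immune lists alone was made after the clusters were seen. No doublet caller was run, and cells with UMIs of at least 2 genes of another class were left out in an alternative. UMI sums for each class and library (at least 20 cells) were scaled to CPM and compared as ratios with exact intervals in scipy 1.17.1 (Python 3.11.15, numpy 2.4.6, pandas 2.3.3, matplotlib 3.10.9). Genes with at least 20 UMIs over both pools were called at 2-fold. Ratios and calls were tested on simulated data. For shares, cells were thinned to 1000 UMIs.

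The 8 genes were described in every comparison. From the 8 pathway lists, genes with enough UMIs and a ratio past 2-fold were named, up to 4 a list by the end of the interval nearest 1. A gene of the list of ligands and receptors is not reported here. Genes most like a member were the 3 of highest Pearson's r. The genes, lists and classes were chosen with earlier results of these data known. Sequences came from RefSeq (GRCm38.p6), in which Klrd1 and Ccl5 were not matched. Alternatives were 9 planned ones and 4 chosen after seeing the data.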

Additional observations from a re-analysis of the deposited data

Results flagged for a closer look

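Klrk1 had opposite directions in T-like cells on the 2 days and in the 2 diets. Hypothyroid over control, its ratio was 2.22 at 5 dpi and 0.488 at 14 dpi. From 5 to 14 dpi it was 1.45 in control and 0.32 in hypothyroid muscle. Ccl5 in NK-like over T-like cells at 5 dpi had a ratio of 1.10 in control and 0.445 in hypothyroid muscle. In each case the intervals of the 2 ratios lay on opposite sides of 1, they rest on 1 library a group, and the differences between them were not tested. The columns of the later barcode runs, which entered no main comparison, held 36065 UMIs of the 8 genes, in 1702 of 9062 columns (18.8%), against 50713 UMIs in 22.5% of the 11207 cells used.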

How the results depend on the processing

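The summed ratio of the 8 genes, hypothyroid over control, was 2.47 in T-like cells at 5 dpi, 3.59 in T-like cells at 14 dpi and 1.21 in NK-like cells at 5 dpi. In this order it was 1.12, 1.42 and 1.08 with all cell columns, 1.37, 2.86 and 0.852 with cells taken by marker UMIs, 2.25, 3.28 and 1.27 at doubled resolution, 5.11, 10.7 and 1.46 as a mean of log2(CPM + 1), 2.72, 2.47 and 1.36 without possible doublets, and, among the alternatives added after seeing the data, 1.83, 1.70 and 1.44 per lineage UMI. At 5 dpi NK-like cells had 1.37 both within the study's limits on UMIs and genes and without dividing cells, and 1.28 with the smallest value as 1 UMI. T-like cells at 14 dpi had 3.87 within those limits. With T cells taken by a CD3 UMI, an alternative added after seeing the data, the ratio was 1.27 at 5 dpi and 2.84 at 14 dpi, and in the largest T-like cluster alone it was 1.93 at 5 dpi. Among values whose main interval did not include 1, the direction was turned for the sum in NK-like cells by the marker rule (0.852), for Gzma in NK-like cells by the same rule (0.419) and for Gzma in T-like cells at 5 dpi by the CD3 rule (0.413), and the cause was not tested. The marker rule left 23 hypothyroid and 85 control NK cells at 5 dpi. Of 265 values of single genes under an alternative 185 stayed within the counting interval of the main value and the others left it. On the other side of 1 from the main value lay 22, and for 2 of these, both of Gzma, the main interval did not include 1. Of 96 shares of cells 39 stayed within it, and 57 moved with the depth to which cells were thinned.

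No paired analysis was possible because each group held 1 library. No fold change at 14 dpi could be had for NK-like cells, with 0 cells of the named clusters in control and 19 in hypothyroid muscle, and no alternative gave 20 in both. Counts limited Prf1, Gzma and Klre1 in T-like cells, with 0 to 59 UMIs a library. Differences between pools of mice and between diets cannot be told apart.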

Other observations

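Klrd1 and Klrk1 were also found in dendritic-like cells at 5 dpi, Klrd1 at 60.7 CPM in control against 145 CPM in hypothyroid muscle and Klrk1 at 68.7 and 76.0 CPM. Prf1 in the same cells was at 12.9 and 5.51 CPM and Gzma at 65.2 and 29.8 CPM. In their largest cluster, over all libraries, 11 of 375 cells had a Prf1 UMI and 21 a Gzma UMI. In uninjured muscle, over all cells, Gzmb was at 29.3 CPM in control against 3.50 CPM in hypothyroid mice, from 174 and 8 UMIs, of which the cluster led by Mcpt4 held 159 in control muscle.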
